A study of Zea mays with 12 samples.

Results

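The hybrid B73xMo17 was compared with its midparent, the level expected if the expression of its parents simply averaged, in immature ears of maize. The comparison took the 3 arrays of B73xMo17 against the mean, on the linear scale, of the B73 group mean (3 arrays) and the Mo17 group mean (3 arrays), so that 9 of the 12 arrays of the series entered it directly. The 3 arrays of the reciprocal hybrid Mo17xB73 added to the estimate of the spread between replicates and were set beside B73xMo17. All plants were grown in the field, and B73 and Mo17 are inbred lines of maize. Crosses are written with the seed parent first, so B73xMo17 had a B73 mother and a Mo17 father, and Mo17xB73 the opposite. Each array, labelled a biological replicate, was hybridised with 8 ug of total RNA from a pool of 6 ears of 1 genotype, each between 3.7 and 5.4 mm long, freed of husks and silks by hand and collected over 3 consecutive days. A pool does not show the spread between single ears.

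An F1 hybrid carries an allele of each gene from either parent. Where each allele is transcribed as it is in its inbred, the hybrid lies at the midparent, which is called additive expression. Levels at one parent resemble dominance, and levels beyond both parents are the transcript counterpart of over- or underdominance, terms long used in the study of heterosis in maize. The immature ear is a young female inflorescence made up largely of meristems, spikelets and florets.

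The deposited signals of 17734 probe sets, linear values from MAS5, were scaled so that each array had the same median over the 17621 that are not controls. Signals below a floor of 11.9, where they carry no order, were set to the floor. Of these, 11126 probe sets were bright enough to be tested. The array annotation named few of them: 842 of those tested carried a usable gene name, covering 692 names, and the others are given by their array identifier. The median deposited signal was 164 ± 32.5 in B73xMo17, 154 ± 12.1 in Mo17xB73, 192 ± 41.1 in B73 and 142 ± 17.2 in Mo17 (SD, n = 3 each). The second B73 array stood apart at the low end, with a 20th percentile of 29.0 against 10.7 to 15.6 on the other arrays, and the counts of calls were also taken without it. Genes of floral organs and ear architecture lay high in B73xMo17, the MADS-box floral genes at a median percentile of 70.1 and the ear architecture genes at 61.7. Those of endosperm lay at 9.55, with 3 of 37 probe sets bright enough to test, and those of pollen and anthers at 13.4, with 2 of 11. Photosynthesis genes, which husk would bring, lay at 49.9, and their summed signal was 4387 to 5209.8 in B73xMo17, against 3852 to 4597 in B73 and 5753 to 6172 in Mo17.

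B73xMo17 lay close to its midparent at nearly all the probe sets tested. On the log2 scale, the median departure (B73xMo17 minus midparent) was -0.04, and the middle 90% of probe sets ran from -0.30 to 0.21. Only 10 probe sets passed limma's moderated test at an adjusted p under 0.05, which is 0.0899% of the 11126 tested. Of these, 5 were higher in B73xMo17 (0.0449%) and 5 were lower (0.0449%). That split moved with the scaling, to 4 higher and 14 lower with the signals as deposited, 16 and 4 scaled over the probe sets kept, and 19 and 10 after quantile normalization. At an unadjusted p under 0.05 there were 958 probe sets (8.61%), 263 higher (2.36%) and 695 lower (6.25%), against 226 with the signals as deposited, 566 without the third B73xMo17 array and 1465 without the second B73 array. The 95% interval of the departure lay within 1 log2 unit, a 2-fold change, for 10904 probe sets (98.0%), and the median standard error (SE) was 0.11. Where the parents differed at least 2-fold, that share was 92.1% (1243 of 1350). At the others the parents differed less or were not called apart, and a level at either parent could also fall within that range. In whole ears, fewer cells of a type and less RNA per cell cannot be told apart. Without the second B73 array, 12 probe sets were higher and 13 lower, and over the fits that left out each of the 12 arrays in turn the counts ran from 1 to 12 higher and from 1 to 13 lower. The lowest counts came without the third B73xMo17 array, and 12 were also higher without the second Mo17 array.

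**Figure D1:**
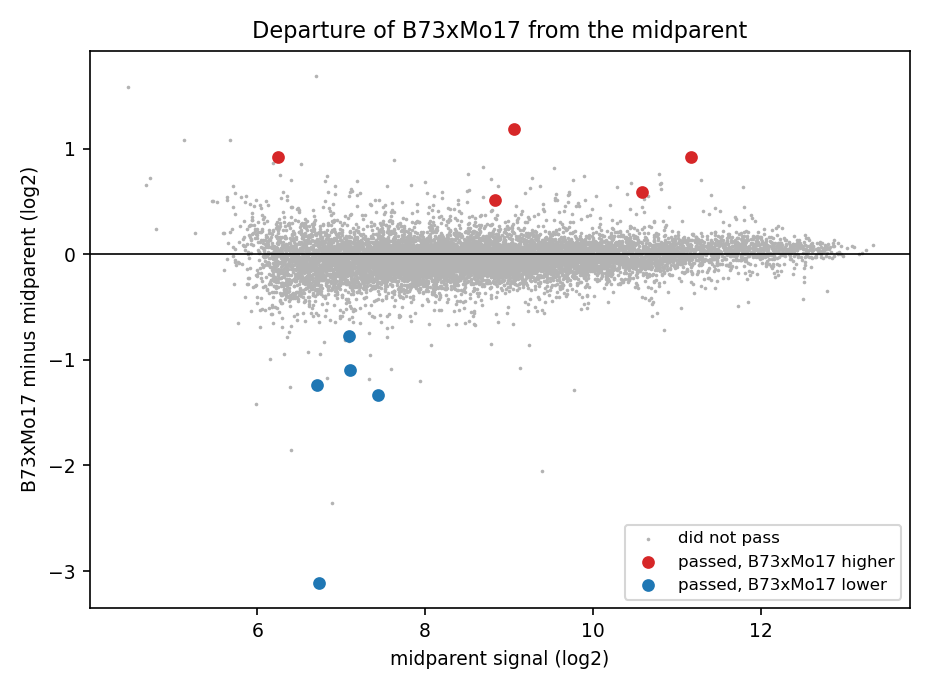
Departure of B73xMo17 from the midparent (log2, y axis) against the midparent signal (log2, x axis) for the 11126 probe sets tested. Grey points did not pass, and coloured points are the 5 higher and 5 lower probe sets that passed. Nearly all points lie near 0, and the 5 lower probe sets have dim midparents.

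The signals of the parents themselves differed widely, which gave the comparison its range. Probe sets of 1 gene could point opposite ways. For tub6, B73 and Mo17 averaged 2692 and 388 at Zm.7750.2.S1_at, and 738 and 1340 at Zm.7750.1.S1_at. Whether a signal difference lay in transcript level or in how the probes match each parent's sequence was not tested. B73 and Mo17 differed at 4746 probe sets (42.7%), of which 1350 (12.1% of those tested) differed at least 2-fold. B73xMo17 differed from B73 at 1359 probe sets (12.2%) and from Mo17 at 2368 (21.3%), the second count falling to 1568 without the third B73xMo17 array. Across probe sets, which are no replicates of each other, log2 signals correlated at 0.990 between each B73xMo17 array and the midparent, 0.935 to 0.945 between B73xMo17 and B73 arrays and 0.904 to 0.928 between B73xMo17 and Mo17 arrays. The midparent is a mean over arrays, which lowers noise, so its value is not like those between single arrays. Between B73xMo17 replicates the correlation was 0.985 to 0.990.

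Among the 5 probe sets that were higher than the midparent, 2 carried a gene name, and at both probe sets Mo17 gave a far lower signal than B73. The first is his2b5, which encodes histone H2B, a core protein of the nucleosome. Its signal was 5031, 3966 and 3983 on the B73xMo17 arrays, against 5397, 3623 and 4715 in B73 and 33.2, 28.6 and 27.1 in Mo17. The B73xMo17 arrays overlapped those of B73 and lay far above those of Mo17. The departure from the midparent was 0.92 ± 0.14 on the log2 scale (SE; adjusted p = 0.0233), and B73xMo17 minus B73 was -0.07 ± 0.14 (adjusted p = 0.807). The call against the midparent was lost with the signals as deposited (adjusted p = 0.704, the highest of a range of 1.21e-10 to 0.704 over the alternatives), without any 1 of the B73xMo17 arrays and without the third B73 array. It was also lost without a filter and in the fit of only the 9 arrays of B73xMo17, B73 and Mo17. The probe set belongs to a cluster of 12 tested probe sets of one array transcript family, and his2b5 was the 1 that passed. Histone genes are near-identical copies, so signal from a related copy cannot be told apart. Another member, Zm.14497.4.A1_at, was at the floor in B73 and averaged 2088 in B73xMo17, against 3070 in Mo17, with a departure of 0.44 that did not pass (adjusted p = 0.101).

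The second named gene is tub6, which encodes a beta-tubulin, a subunit of microtubules. Its probe set Zm.7750.2.S1_at gave 2366, 2374 and 2189 in B73xMo17, against 2880.0, 2312 and 2885 in B73 and 396, 389.9 and 378 in Mo17. The hybrid arrays again overlapped those of B73 and not those of Mo17. The departure was 0.59 ± 0.09 (SE; adjusted p = 0.0293). This call too was lost with the signals as deposited (adjusted p = 0.999993, the highest of a range that began at 2.84e-07), without any 1 of the B73xMo17 arrays and without the second Mo17xB73 array. Like that of his2b5, it was also lost without a filter and in the fit of only the 9 arrays. The other 3 tested probe sets named tub6 departed by 0.05 to 0.23 and did not pass, and in 2 of them Mo17 had a higher mean than B73.

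The remaining 3 higher probe sets had no gene name. Zm.12634.1.A1_at gave 1210.2, 1099 and 1321 in B73xMo17, against 497, 585 and 499 in B73 and 524, 591 and 505 in Mo17. The parents were alike and every B73xMo17 array lay above every parental array, a separation found at 47 of the probe sets tested (0.422%) upwards and at 143 (1.29%) downwards. Its departure of 1.18 ± 0.10 (SE; adjusted p = 0.000187) had the smallest p of the comparison, while the other 8 tested probe sets of its cluster departed by -0.01 to 0.18 and did not pass. Zm.860.1.A1_at gave 171, 134 and 125 in B73xMo17, against 114, 87.7 and 93.5 in B73 and 54.0, 41.7 and 64.3 in Mo17, and here too every B73xMo17 array lay above every parental array. Its departure was 0.92 ± 0.16 (SE; adjusted p = 0.0486), a call that 7 of 11 alternatives kept, with adjusted p up to 0.421 as deposited, and 4 of the 12 fits with an array left out. Zm.2478.2.A1_at gave 655, 623 and 676 in B73xMo17, against 739, 690.1 and 706 in B73 and 189.9, 197 and 209 in Mo17. It lay just under B73, with a departure of 0.52 ± 0.08 (SE; adjusted p = 0.0233). The calls of Zm.860.1.A1_at and Zm.2478.2.A1_at were lost with the signals as deposited and without any 1 of the B73xMo17 arrays or the third B73 array. Both were also lost in the fit of only the 9 arrays of B73xMo17, B73 and Mo17, while Zm.12634.1.A1_at kept its call throughout.

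None of the 5 lower probe sets had a gene name, and in each of the 5 B73xMo17 lay nearer to the lower parent than to the midparent, or below that parent. Zm.13929.1.S1_at was at the floor on all 3 B73xMo17 arrays, against 11.9, 19.6 and 36.8 in B73, where the first value is the floor, and 200.0, 129 and 241 in Mo17. The departure, with B73xMo17 set to the floor, was -3.11 ± 0.37 (SE; adjusted p = 0.00339), with an interval of -3.89 to -2.32. Against the midparent as estimated, B73xMo17 was at least 8.62-fold lower. That figure leaves out the spread of the parental arrays and takes the first B73 value at the floor. Over the alternatives the departure ran from -3.34 to -0.73. On the Mo17xB73 arrays the same probe set gave 13.4, 11.9 and 11.9. This probe set, with signal on every Mo17 array, was at or near the floor on all 6 hybrid arrays.

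Zm.16805.8.S1_at gave 67.9, 68.3 and 67.0 in B73xMo17, against 288, 409 and 305 in B73 and 12.8, 11.9 and 11.9 in Mo17. It lay between the parents, apart from both, with a departure of -1.34 ± 0.17 (SE; adjusted p = 0.00499). This is the 1 called probe set whose sign turned under an alternative, to 0.10 against the geometric mean of the parents, and its call was also lost without the third B73xMo17 array. Its cluster held 11 tested probe sets. Zm.16805.3.S1_a_at and Zm.16805.3.S1_x_at departed by -1.17 and -0.93 without passing (adjusted p = 0.156 and 0.323). The other members departed by -0.08 to 0.17 and did not pass. Zm.11758.1.A1_at gave 42.4, 39.6 and 50.2 in B73xMo17, against 175, 123.2 and 127 in B73 and 62.8, 71.3 and 66.3 in Mo17. Every B73xMo17 array lay below every parental array, and the departure was -1.24 ± 0.20 (SE; adjusted p = 0.0293), although the difference from Mo17 alone did not pass (adjusted p = 0.0696). Its call was lost without any 1 of the B73xMo17 arrays or the first or the third B73 array, and kept with the signals as deposited.

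The last 2 were at the level of B73, or near it, and far below Mo17. Zm.10003.1.A1_at gave 70.9, 47.5 and 77.8 in B73xMo17, against 45.5, 49.8 and 37.2 in B73 and 224, 253 and 213 in Mo17, a departure of -1.09 ± 0.18 (SE; adjusted p = 0.0368). Zm.7559.1.A1_at gave 86.4, 77.3 and 75.5 in B73xMo17, against 74.5, 66.8 and 73.8 in B73 and 229, 192 and 181 in Mo17, a departure of -0.77 ± 0.13 (SE; adjusted p = 0.0395). Both calls were kept by 7 of 11 alternatives and 3 of the 12 fits with an array left out. They were lost without any 1 of the B73xMo17 arrays and with the signals as deposited, where the adjusted p was 0.220 for Zm.10003.1.A1_at and 0.999993 for Zm.7559.1.A1_at, the highest of each over the alternatives. Of the 10 called probe sets, 8 were among those that differed at least 2-fold between the parents.

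**Figure D2:**
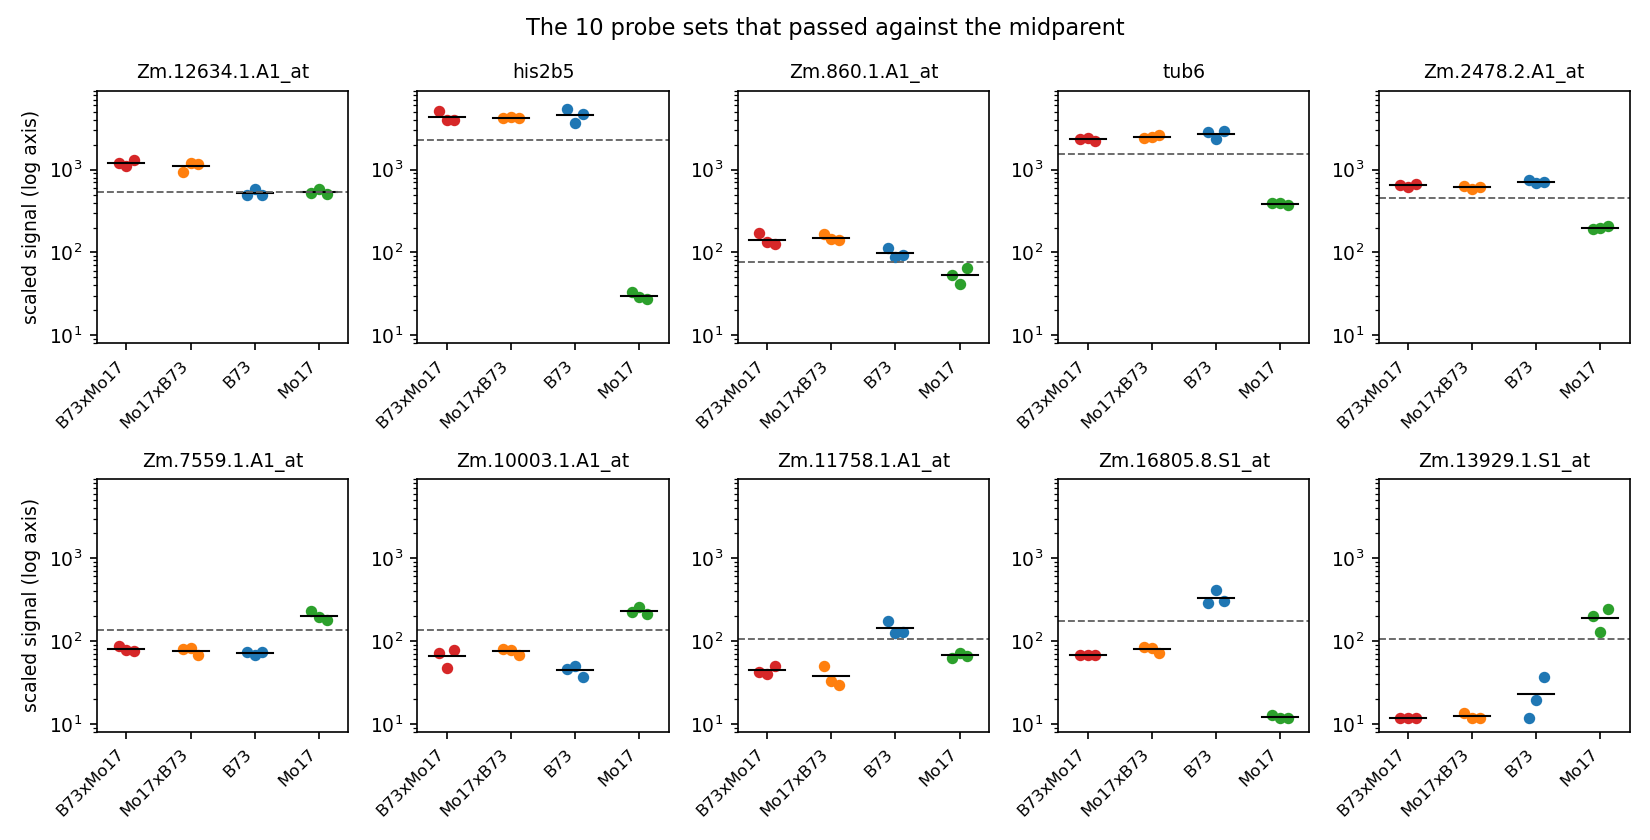
Scaled signal (log axis) of the 10 probe sets that passed, on each of the 12 arrays, with B73xMo17 leftmost. Points are arrays, short black lines group means, and the dashed line the midparent. In the upper row the 3 B73xMo17 points lie above the dashed line, and in the lower row they lie below it, with Zm.13929.1.S1_at at the floor.

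The named genes with the next smallest p did not pass and are given as values. On the higher side, HRGP, whose hydroxyproline-rich glycoprotein product is laid into cell walls, gave 2829, 2615 and 2762 in B73xMo17, against 4211, 3113 and 3421 in B73 and 11.9, 14.5 and 11.9 in Mo17, where the first and the last value are the floor. Its departure was 0.62 ± 0.12 (SE; adjusted p = 0.0587). The MADS-box gene zag2, an AGAMOUS-like gene of the developing carpel and ovule, gave 355, 379 and 394 in B73xMo17, against 168, 161 and 186 in B73 and 422, 344 and 422 in Mo17. It was at the level of Mo17, with a departure of 0.41 ± 0.10 (adjusted p = 0.132), and the difference from B73 passed at 1.13 (adjusted p = 3.23e-06).

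Several other genes had B73xMo17 means above the midparent without passing. GPC1, the cytosolic glyceraldehyde-3-phosphate dehydrogenase of glycolysis, averaged 211 ± 25.7 in B73xMo17, against 45.2 ± 14.6 in B73 and 234 ± 14.6 in Mo17 (SD, n = 3 each), a departure of 0.60 (adjusted p = 0.258). For pep7 the means were 290.2 ± 20.2 in B73xMo17, 62.7 ± 11.3 in B73 and 310.2 ± 41.2 in Mo17, a departure of 0.65 (adjusted p = 0.135). The prohibitin gene phb3, which encodes a scaffold protein of the inner mitochondrial membrane, averaged 249 ± 32.0 in B73xMo17, 314 ± 40.7 in B73 and 34.1 ± 7.02 in Mo17, a departure of 0.51 (adjusted p = 0.354). The departures of HMT-2, a homocysteine S-methyltransferase, MANT1, fer2, which encodes the iron store ferritin, porin1, and the ribosomal protein gene rps13 ran from 0.32 to 0.41, with adjusted p from 0.256 to 0.39.

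On the lower side, pdc2, a pyruvate decarboxylase that opens the route to ethanol, gave 36.2, 27.9 and 42.1 in B73xMo17, against 11.9, 15.7 and 11.9 in B73, where 2 values are the floor, and 164, 146 and 152 in Mo17. The B73xMo17 arrays lay apart from both parents and nearer to B73 on the signal scale. The departure was -1.25 ± 0.24 (SE; adjusted p = 0.0587). DREB2A, a transcription factor of drought and heat responses, gave 99.4, 109 and 122.7 in B73xMo17, against 204, 278 and 246 in B73 and 92.8, 99.4 and 83.7 in Mo17, a departure of -0.60 ± 0.13 (adjusted p = 0.0818). It lay close to Mo17, and its difference from B73 passed at -1.13 (adjusted p = 5.84e-05).

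CAT3, a catalase that breaks down hydrogen peroxide, averaged 119.6 ± 3.31 in B73xMo17, against 317 ± 13.4 in B73 and 72.2 ± 26.4 in Mo17 (SD, n = 3 each), a departure of -0.69 (adjusted p = 0.187). The MADS-box gene m1 averaged 544 ± 6.16 in B73xMo17, against 1231 ± 103 in B73 and 195 ± 14.6 in Mo17, a departure of -0.39 (adjusted p = 0.181), with B73xMo17 apart from both parents (adjusted p = 1.39e-06 against B73 and 4.64e-08 against Mo17). The aquaporin PIP1-4, a water channel of the plasma membrane, averaged 1335 ± 68.0 in B73xMo17, against 1162 ± 147 in B73 and 2248 ± 151 in Mo17, a departure of -0.35 (adjusted p = 0.187). The glutathione transferase gst5 and MNB1a, which encodes a Dof transcription factor, departed by -0.57 and -0.42, and abcf1 by -0.47, with adjusted p of 0.225, 0.258 and 0.187.

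The genes were also read by 21 lists of function, and 2 of the lists held a probe set that passed: histones, with 1 of 6 tested (his2b5), and cytoskeleton, with 1 of 32 (tub6). The other 19 lists, with 367 probe sets tested between them, held none that passed limma's test, against 0.0899% of all probe sets, and at an unadjusted p under 0.05 they held 13 higher and 26 lower, 10.6% in all, near the 8.61% of all probe sets. List medians ran from -0.18 to 0.12, against -0.04 over all probe sets tested.

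The 12 tested heat shock probe sets, whose products are chaperones, had the lowest list median, -0.18, with departures from -2.35 to 0.23. In the lowest of them, hsp26, a small heat shock protein gene, B73xMo17 gave 11.9, 11.9 and 64.0, where the first 2 values are the floor, against 18.0, 38.1 and 71.9 in B73 and 318, 107 and 159 in Mo17. The arrays of each genotype were scattered, and the departure of -2.35 ± 0.65 (SE) did not pass (adjusted p = 0.24). The mean of hsp101, a chaperone that takes aggregated proteins apart, was 2347 ± 585 in B73xMo17, 1859 ± 1024 in B73 and 4954 ± 1185 in Mo17 (SD, n = 3 each), a departure of -0.49 ± 0.32.

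Of the genes that pattern the ear, none passed. Over the 26 tested MADS-box probe sets, which specify floral organs, departures ran from -0.57 (ZMM2) to 0.41 (zag2), with a median of -0.07, and 2 were higher and 2 lower at an unadjusted p under 0.05. The 19 probe sets of ear architecture genes had a median of 0.08 and ran from -0.23 to 0.32, with 1 lower at that level. Their median sizes of departure, whatever the sign, were 0.114 and 0.123, against 0.090 over all probe sets tested. Among them fea2, a receptor-like protein that limits meristem size, averaged 489 ± 44.1 in B73xMo17, against 523 ± 38.0 in B73 and 620.0 ± 39.2 in Mo17, with a departure of -0.23 and a 95% interval of -0.43 to -0.02. The SBP-box gene ub2, a regulator of the number of inflorescence branches and kernel rows, gave 745, 731 and 736 in B73xMo17, against 669, 490.1 and 593 in B73 and 611, 724 and 839 in Mo17, a departure of 0.18 with an interval of -0.07 to 0.44. The YABBY genes yab14 and yab10, of a family that marks the lower side of lateral organs in Arabidopsis, departed by 0.18 and -0.16.

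In chromatin genes the median size of departure was 0.067 over 67 probe sets, against 0.090 over all probe sets tested. The histone acetyltransferase gene hag101 had the smallest p of the list, at 0.26 ± 0.09 (SE; adjusted p = 0.399). The 23 cell cycle probe sets had a median departure of 0.03 and a range of -0.23 to 0.23, and mad2, of the spindle checkpoint, averaged 876 ± 124 in B73xMo17, against 769.8 ± 76.6 in B73 and 735 ± 181 in Mo17. The 46 translation probe sets had a median of 0.06, with 4 higher and 2 lower at an unadjusted p under 0.05, against 2.36% higher and 6.25% lower over all probe sets.

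Among the metabolic lists, 3 of the 14 starch and sucrose probe sets were lower at an unadjusted p under 0.05, against 6.25% of all probe sets, and none passed. Sucrose synthase sus2, which splits sucrose, gave 68.2, 62.3 and 68.5 in B73xMo17, against 109.6, 142 and 179 in B73 and 97.9, 55.0 and 52.9 in Mo17, a departure of -0.64 ± 0.23 (adjusted p = 0.424). Starch synthase ss1 departed by -0.25 and the vacuolar invertase ivr2 by -0.47. Of the 9 defence probe sets, 3 were lower at that level, against the same 6.25%, among them glu1, a beta-glucosidase that releases benzoxazinoid toxins, at -0.64 ± 0.18 (adjusted p = 0.236), and bx6, an enzyme of benzoxazinoid synthesis, at -0.34 ± 0.09 (adjusted p = 0.213). The 22 glycolysis and fermentation probe sets had a median of 0.08 and ran from -1.25 (pdc2) to 0.60 (GPC1), and adh1, the alcohol dehydrogenase of fermentation, departed by 0.17 ± 0.11.

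**Figure D3:**
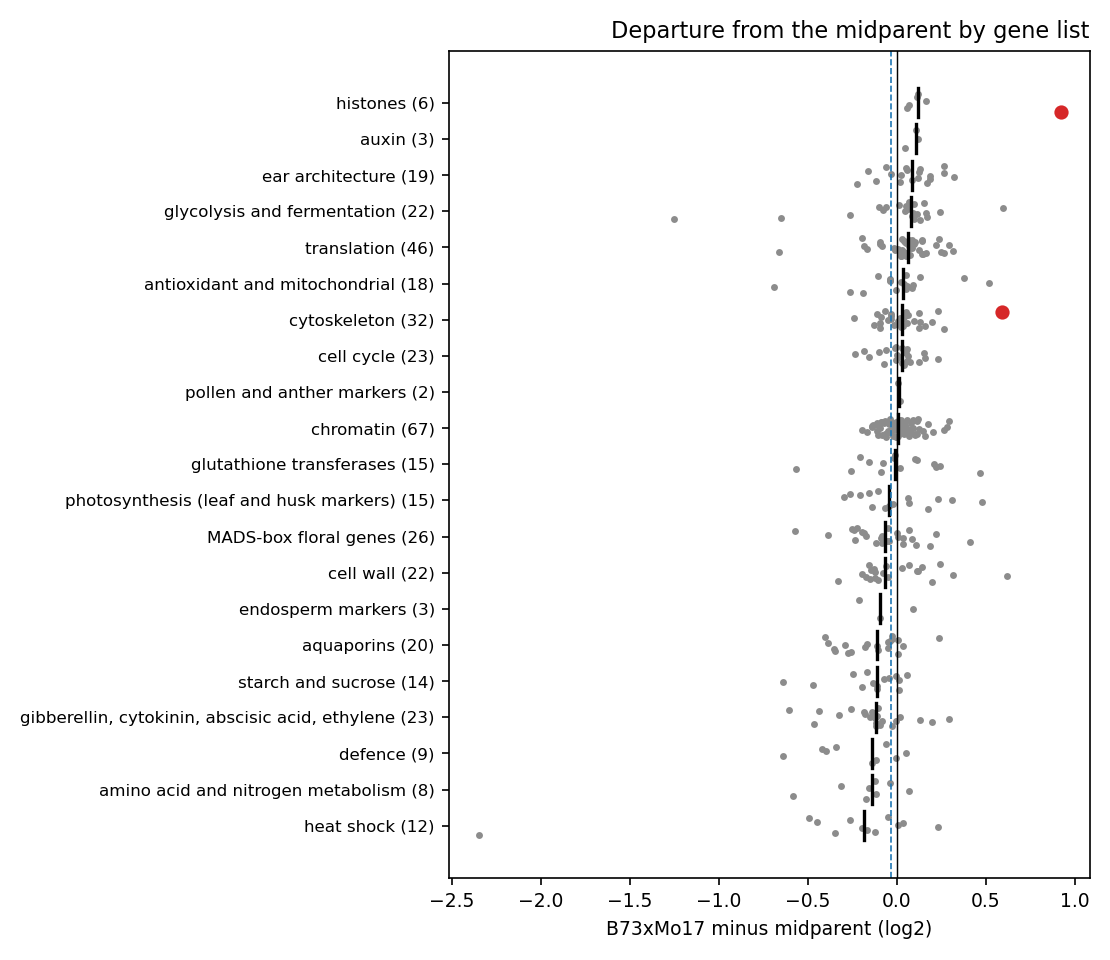
Departure of B73xMo17 from the midparent (log2, x axis) of every tested probe set in the 21 gene lists, with the number tested in brackets. Points are probe sets, black bars list medians, red points the 2 that passed (his2b5 and tub6), the solid line 0 and the dashed line the median of all probe sets, -0.04.

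Where the parents differed at least 2-fold, the place of B73xMo17 between them could be read directly. Position was scaled to run from -1 at the lower parent through 0 at the midparent to 1 at the higher parent. Over these 1350 probe sets the median position was -0.03, with quartiles of -0.23 and 0.18. Of them, 873 (64.7%) lay within 0.3 of the midparent. Near a parent, 22 lay at the level of the higher (0.8 to 1.2) and 31 at that of the lower, and 9 lay above and 4 below the parental range by this measure. The median positions on the single B73xMo17 arrays were -0.07, -0.03 and -0.02. With a parental difference of at least 4-fold, 579 probe sets had a median of -0.02, and with at least 16-fold, 153 had a median of -0.03.

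By the test, 771 of the 1350 (57.1%) were both below the higher parent and above the lower one. A further 404 (29.9%) passed above the lower parent only, 125 (9.26%) below the higher parent only, and 50 (3.70%) passed against neither. The test used log2 signals, on which the linear midparent lies nearer to the higher parent than to the lower one. The counts of 404 and 125 are therefore not read as a lean towards the higher parent. They were 291 and 28 where B73 was higher, and 113 and 97 where Mo17 was higher. The cause of that contrast was not tested, and these counts are for arrays scaled to a common median only. These positions use the parental values by which the probe sets were chosen, so they are a description.

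The position differed with the parent that was higher, and the sign of that difference depended on the scaling. The 741 probe sets higher in B73 had a median position of 0.05 and the 609 higher in Mo17 one of -0.14. Under each other scaling the probe sets were chosen anew, so the sets differ as well as the scaling. With the signals as deposited the median was -0.10 for 1237 probe sets higher in B73 and 0.04 for 383 higher in Mo17. No direction towards either parent is therefore given. Scaled over the probe sets kept they were 0.07 and -0.07, and after quantile normalization 0.04 and -0.09.

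Among the probe sets with a gene name, 89 differed at least 2-fold between the parents, covering 80 names, and 48 of the 89 (53.9%) lay within 0.3 of the midparent. Examples with large parental differences, chosen after their values were seen, show such intermediate levels. CesA-4, a cellulose synthase subunit, gave 154, 179 and 196 in B73xMo17, against 318, 324 and 292 in B73 and 14.9, 12.3 and 11.9 in Mo17, a position of 0.10. UMPS, which makes uridine monophosphate, gave 175, 202 and 183 in B73xMo17, against 61.6, 43.9 and 60.4 in B73 and 313, 370.2 and 372 in Mo17, a position of -0.12. In both genes the B73xMo17 arrays lay clear of the arrays of either parent.

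The auxin-binding protein gene abp4 gave 830.4, 733 and 795 in B73xMo17, against 1279, 991 and 1248 in B73 and 249, 279 and 314 in Mo17, a position of 0.13, and passed below B73 (adjusted p = 0.00569) and above Mo17 (adjusted p = 3.12e-07). The aquaporin NIP2-3 had a position of -0.35, and the catalase CAT3 one of -0.61. The glutathione transferase gst13 gave 212, 226 and 232 in B73xMo17, against 11.9, 28.8 and 11.9 in B73, where 2 values are the floor, and 242, 361 and 329.9 in Mo17, a position of 0.40, with a wide interval of the departure, -0.10 to 1.04.

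**Figure D4:**
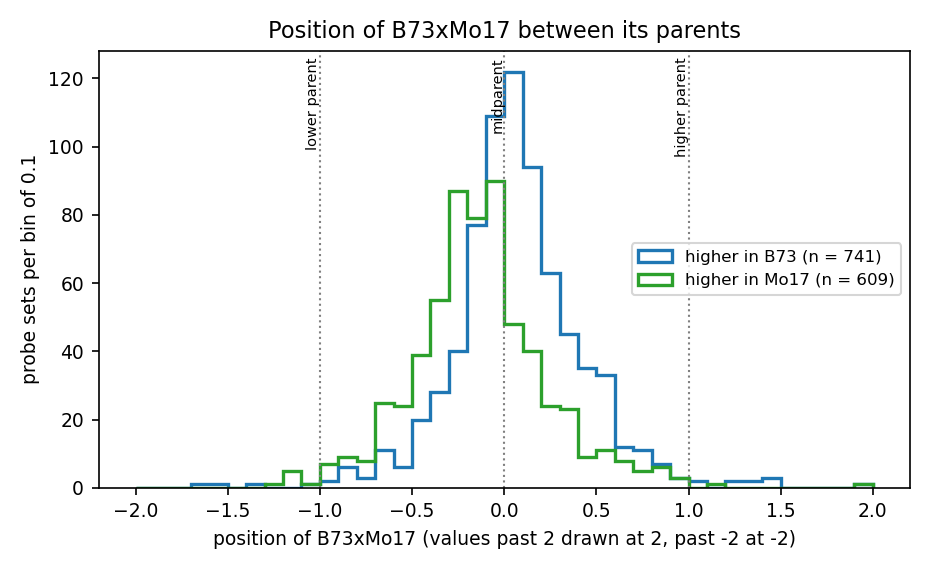
Position of B73xMo17 between its parents (x axis) for the probe sets that differed at least 2-fold between B73 and Mo17, as the number of probe sets per bin of 0.1 (y axis). Lines separate the 741 higher in B73 from the 609 higher in Mo17, and dotted lines mark the parents and the midparent. Both distributions centre near 0, with medians of 0.05 and -0.14.

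Probe sets with signal in a single parent could be read against that parent alone. At 82 probe sets called higher in B73, all 3 Mo17 arrays were at the floor, and all 3 B73xMo17 arrays lay above it at each of the 82. B73xMo17 had a median of 52.3% of the B73 signal there, with quartiles of 48.2% and 56.4%. At 36 probe sets with Mo17 higher and all B73 arrays at the floor, B73xMo17 had a median of 47.1% of the Mo17 signal, with quartiles of 40.3% and 50.9%, and again all 3 B73xMo17 arrays lay above the floor at each. On the Mo17xB73 arrays, which are set against the same parental arrays, the medians were 52.7% and 47.1%. No probe set of either group passed against the midparent by limma's test, against 0.0899% of all probe sets tested. At an unadjusted p under 0.05, 2 of the 82 were higher and 1 lower, and 2 of the 36 were higher and 10 lower, against 2.36% higher and 6.25% lower over all probe sets. Both groups were chosen by parental values that this comparison uses again, so these counts and percentages are a description. Without the second B73 array, 64 probe sets in place of 36 were at the floor in B73, and B73xMo17 had a median of 47.1% of the Mo17 signal there too. All these percentages and counts are given for arrays scaled to a common median only. With parents at least 16-fold apart, the median position was 0.025 where B73 was higher and -0.074 where Mo17 was higher. These were 95 and 58 probe sets. With the signals as deposited the probe sets were chosen anew, and the medians were -0.124 over 127 and 0.078 over 46. The contrast between 52.3% and 47.1% therefore gives no direction towards either parent.

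**Figure D5:**
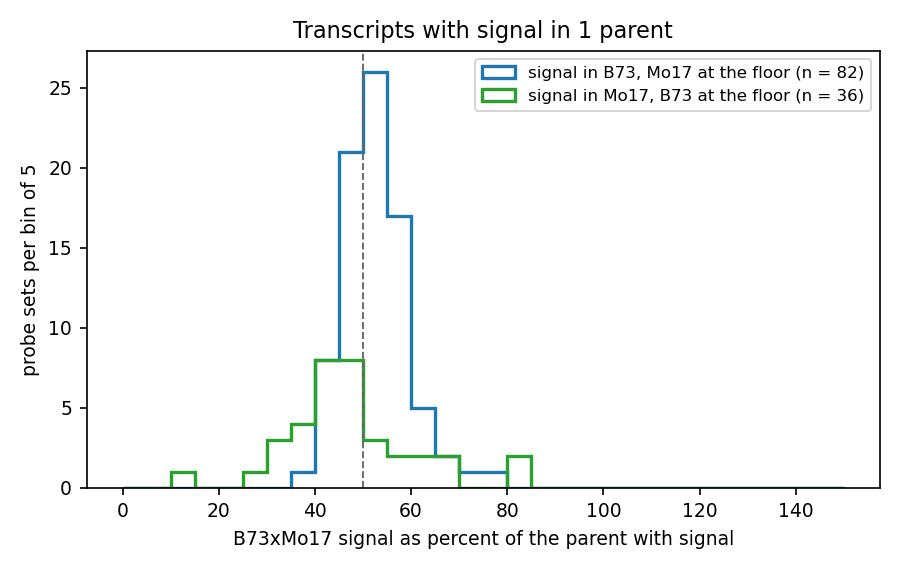
B73xMo17 signal as a percentage of the signal of the parent that had one (x axis), as probe sets per bin of 5 (y axis), for the 82 probe sets at the floor in Mo17 and the 36 at the floor in B73. The dashed line marks 50%, and the medians are 52.3% and 47.1%, for arrays scaled to a common median only.

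Few probe sets of B73xMo17 passed against both parents in the same direction. There were 4 above both (0.036%) and 8 below both (0.0719%). With the signals as deposited, Zm.12634.1.A1_at was the 1 of these 12 that still passed against both parents, and the counts were 3 above and 0 below. Apart from Zm.12634.1.A1_at, those above were Zm.4852.1.A1_at, which gave 1129, 1292 and 1446 in B73xMo17, against 644, 771 and 859 in B73 and 510.2, 817 and 851 in Mo17, and 2 dimmer or more scattered ones, Zm.19110.1.A1_at and Zm.16513.11.A1_x_at. In Zm.16513.11.A1_x_at the B73xMo17 arrays gave 1732, 932 and 1719.6, of which the second lay within the B73 range. Without the second B73 array 6 probe sets were above both parents and 19 below, and leaving out each array in turn gave 2 to 7 above and 2 to 19 below, with the lowest counts without the third B73xMo17 array and the 7 without the first Mo17 array.

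The 1 named gene below both parents was acco20, an oxidase of 1-aminocyclopropane-1-carboxylic acid that makes ethylene. It gave 417, 468 and 413 in B73xMo17, against 630.0, 541 and 584 in B73 and 552, 623 and 664 in Mo17. Every B73xMo17 array lay below every parental array. B73xMo17 minus B73 was -0.43 ± 0.11 (SE; adjusted p = 0.0173) and B73xMo17 minus Mo17 was -0.50 ± 0.11 (SE; adjusted p = 0.00487), while the departure from the midparent, -0.47 ± 0.10, did not pass (adjusted p = 0.0656). With the signals as deposited neither difference passed (adjusted p = 0.0996 against B73 and 0.770 against Mo17, the highest of ranges that began at 0.00352 and 0.00294 over the alternatives), and the one from B73 also missed without the first or the third B73xMo17 array or the first B73 array. The means of ZmAffx.806.1.S1_at, which has no gene name, were 249 ± 64.0 in B73xMo17, 479.9 ± 35.9 in B73 and 399.5 ± 21.6 in Mo17. Of the other unnamed ones, the 3 farthest below both parents, ZmAffx.1316.1.S1_at, Zm.19227.1.S1_at and Zm.1353.1.A1_at, departed from the midparent by -0.74, -0.55 and -0.63. None of the 3 was among the 10 probe sets that passed against the midparent.

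Set against the reciprocal hybrid, which has the same midparent, B73xMo17 differed at 0 of 11126 probe sets (0%) by limma's test, with a smallest adjusted p of 0.9998; with the signals as deposited it was higher at 4 and lower at 2. At an unadjusted p under 0.05 there were 223 (2.00%), with B73xMo17 higher at 127 and lower at 96. Leaving out each array in turn gave 149 to 478 at that level, the highest without the third Mo17xB73 array. In Mo17xB73, 99 probe sets passed against the same midparent (0.89%), 43 higher (0.386%) and 56 lower (0.503%), and with each array left out 5 to 54 were higher and 11 to 97 lower, the lowest without the second Mo17xB73 array and the 97 without the second B73 array. Both hybrids share the parental arrays, so their departures are only set side by side. For his2b5 these were 0.92 in B73xMo17 and 0.90 in Mo17xB73, for tub6 0.59 and 0.71, for Zm.12634.1.A1_at 1.18 and 1.04, for pdc2 -1.25 and -1.21, and for acco20 -0.47 and -0.52.

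The probe set nearest to a difference between the hybrids was Zm.6787.2.A1_at, which gave 1127, 1108 and 1126 in B73xMo17 and 724, 765 and 953 in Mo17xB73 (unadjusted p = 0.000579). The asparagine synthetase gene asn1 gave 298, 338 and 155 in B73xMo17 and 35.1, 138 and 151 in Mo17xB73, against 65.3, 97.0 and 64.4 in B73 and 784, 756 and 515 in Mo17. The spread was wide in both hybrids, and the lowest B73xMo17 array lay just above the highest Mo17xB73 array. The difference of 1.47 ± 0.44 (SE; unadjusted p = 0.00465) did not pass adjustment.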

How the data were processed

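Transcripts of 12 arrays were read from the deposited intensity table, 1 linear signal per probe set and array, made with MAS5 per the submitters' processing notes; no version or scaling target is given in the sources used here. Of 17734 probe sets, 113 controls were left out. Each array was scaled to a common median of 155, signals below the floor (11.9, the median over arrays of the scaled 20th percentile) were raised to it, and log2 was taken. Probe sets had to exceed the 40th percentile of the same array on 3 or more arrays (11126 kept, 6495 removed). limma 3.58.1 in R 4.3.3 fitted a mean per genotype (lmFit, eBayes with trend, 8 residual degrees of freedom). The departure is the fitted log2 mean of B73xMo17 minus log2 of the mean of both back-transformed parental means, with a delta-method SE. P-values are 2-sided and Benjamini-Hochberg adjusted over all probe sets tested. Position used linear group means. The code was tested on simulated data. No 2 arrays were identical. The number of arrays limits the precision. Nothing says whether the pools came from separate plots, so p-values measure the spread between these pools.

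Gene names came from the platform annotation (1452 probe sets with 1 gene, 1 with several and 16168 with none), updated through RefSeq's table of Zm-B73-REFERENCE-NAM-5.0 with Python 3.11.15. Named were the 12 called probe sets per direction with a gene name and the largest departures (where fewer were called, those with the smallest p), the 5 largest each way whatever their name, up to 4 members of each list with the smallest p, the 5 farthest outside both parents each way and every named one, and the 3 with the smallest p between the hybrids each way. The comparison, the lists and the settings were chosen with earlier results of these data known. Alternatives covered scaling, floor, filter, eBayes settings, the arrays fitted, the replicate number as a block, the form of the midparent and each array left out.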

Additional observations from a re-analysis of the deposited data

How the results depend on the processing

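The numbers of probe sets higher and lower than the midparent were 5 and 5, and they were 4 and 14 with the signals as deposited, 16 and 4 scaled over the probe sets kept, 19 and 10 after quantile normalization, 31 and 137 with the floor at the 40th percentile, 2 and 4 without a filter, 4 and 0 with the stricter filter (550 at an unadjusted p under 0.05), 6 and 11 without the eBayes trend, 19 and 18 with robust eBayes, and 1 and 3 from the 9 arrays of B73xMo17, B73 and Mo17. Against the geometric mean of the parents, which lies below the arithmetic mean wherever the parents differ, 445 were higher and 31 lower. With linear group means they were 4 and 5. Over the fits leaving out each array in turn they ran from 1 to 12 and from 1 to 13: all 3 B73xMo17 arrays, the first and second B73 arrays, all 3 Mo17 arrays and the first and second Mo17xB73 arrays moved a count by over 1.5 times.

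The counts above and below both parents, 4 and 8, were 3 and 0 as deposited, 3 and 15 without a filter and 3 and 5 with the stricter filter, and 2 to 7 and 2 to 19 with each array left out. Between the hybrids the calls were 4 higher and 2 lower as deposited, 0 to 1 higher and 0 lower with each array left out (the 1 without the second B73xMo17 array), and 0 under the other alternatives. The median position was -0.03, and it was -0.082 with the signals as deposited, 0.0092 scaled over the probe sets kept, -0.11 with the higher floor and 0.070 with the stricter filter, and lay between -0.04 and -0.02 with each array left out. Each alternative chose its own probe sets that differed between the parents, and the causes of these shifts were not tested.

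With the replicate number as a block, 9 probe sets were higher and 9 lower, and all 10 called without the block were among them. The labels do not say that a number marks a shared day, and same-numbered arrays of different genotypes had deviations that correlated at -0.09 to 0.46, over 0.1 in 11 of 18 pairs, with a median of 0.15 against -0.06 between different numbers. In the mean over the other genotypes, 7 of the 12 arrays correlated best with their own number. That is a hint of pairing from the data, but since not every pair was over 0.1 the numbers were not taken to pair the arrays.

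Of the called probe sets, Zm.12634.1.A1_at and Zm.13929.1.S1_at passed under every alternative that kept them, and the stricter filter removed 6 of the 10. Others were lost under some: with the signals as deposited 4 of the 10 passed, and without the third B73xMo17 array 2. The genes his2b5 and tub6 each passed in 9 of 12 settings and in 8 of 12 fits with an array left out. Zm.16805.8.S1_at turned to 0.10 against the geometric midparent (adjusted p = 0.895). Over all the probe sets named, 2544 values were recomputed: 2399 kept their direction and their side of the threshold, 65 lost their call, 59 gained one, 20 uncalled ones changed sign, and that 1 called one did. Arrays give no depth, and dim probe sets are measured least well: the median SE was 0.15 in the dimmest 2781 probe sets, against 0.10 in the brightest 2782.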

Other observations

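The position of B73xMo17 between parents that differed at least 2-fold is given here in 4 bins of equal size by the higher parent's signal, from dim to bright. For probe sets higher in B73 the median positions were 0.0076, 0.0075, 0.061 and 0.158, and the share within 0.3 of the midparent was 65.8%, 77.4%, 71.4% and 56.1%. With the signals as deposited those medians were -0.146, -0.148, -0.092 and -0.039. For probe sets higher in Mo17 they were -0.161, -0.226, -0.139 and -0.078, and with the signals as deposited 0.036, -0.014, 0.046 and 0.104. Each scaling chose its own probe sets. The dimmest bin of those higher in B73 held 187 when scaled and 275 as deposited. The side of the midparent differed between the scalings in 7 of the 8 bins, and the brightest bin had the highest median in each of the 4 sets.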
